A study of Homo sapiens with 6 samples.

Results

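Genes of the motile-cilium axoneme and of intraflagellar transport were examined in 2 stably transfected derivatives of SKOV3.ip1, a human ovarian carcinoma line. The members were all probe sets annotated to exactly 1 gene whose symbol is DNAH, DNAI, DNAAF, RSPH or IFT with a number, or DNAL1, DNALI1, DAW1, FOXJ1, RFX2 or RFX3. They came to 58 of 19775 genes, read by 141 of 54613 non-control probe sets. Probe sets that name several genes (9 with a symbol of these families) and 2 probe sets with an antisense symbol were not members. The S116D line carried a vector with phosphomimetic PEA-15, in which aspartic acid replaces serine. Its titles name Ser116, its characteristics add Ser104, and the treatment text gives Ser16, so the labels do not settle the substitution. The S116A line carried a vector with nonphosphorylatable PEA-15, in which alanine replaces Ser116. PEA-15 is a small adaptor protein that binds ERK and FADD.

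Each line was measured on 3 Affymetrix arrays, and the labels name no further treatment. The labels do not say whether a line is 1 clone or a pool, or whether its arrays came from separate cultures, so errors describe the spread between these arrays. Arrays of the parental line or of an empty vector were not analysed here. Differences are S116D minus S116A on the log2 signal scale. No value enters the symbol rule, but the families were selected on knowledge of these S116D minus S116A differences, among them the large fall of DAW1, so every difference and count between the lines is given as a description. A probe set is said to have risen, fallen or passed where its limma adjusted p over all 54613 probe sets was under 0.05 in the fit on all 6 arrays. That fit was repeated under 13 alternatives, and members that passed in some of them alone are named with their role.

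Motile cilia beat through outer and inner rows of axonemal dynein, motors built from heavy, intermediate and light chains. Cytoplasmic assembly factors preassemble these motors, radial spokes regulate them, and intraflagellar transport (IFT) trains carry the parts along the axoneme. IFT also builds the non-motile primary cilium of many other cells, whereas axonemal dynein serves motile cilia and flagella. FOXJ1 and the RFX factors switch on ciliary genes, in the fallopian tube epithelium among other tissues.

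Among these genes the S116D line differed from the S116A line by a much lower DAW1 signal and by small shifts of a few others. DAW1, DNAH5, IFT57 and IFT20 fell, DNAI4 and IFT88 rose, and 135 of the 141 probe sets did not pass. The 6 that passed were 4.26% of the members, and 8.55% of all probe sets passed, 4.36% higher and 4.19% lower in S116D. DAW1 was the only member that differed at least 2-fold, as 1.12% of all probe sets did. The median difference was 0.01 over the members, with quartiles of -0.056 and 0.086. Over all probe sets the median was 0.003, with quartiles of -0.074 and 0.075. The lines did not overlap for 33 members (23.4%), 19 higher and 14 lower in S116D, where 24% of all probe sets did not overlap.

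**Figure D1:**
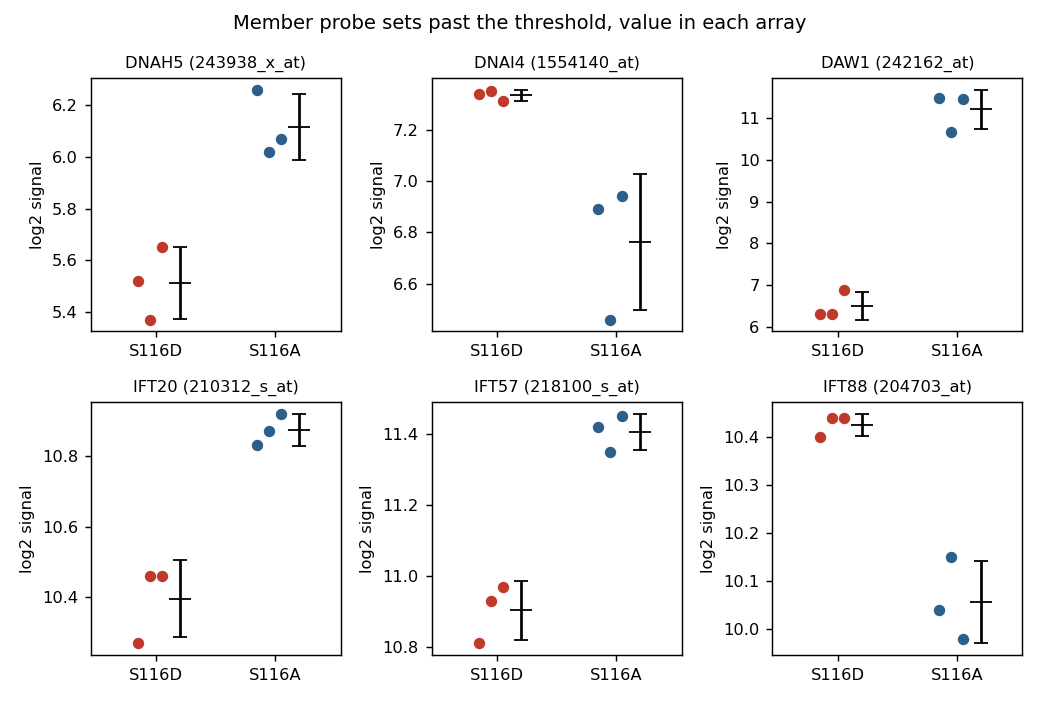
Log2 signal of the 6 member probe sets that passed the threshold, in each of the 3 S116D arrays (red) and the 3 S116A arrays (blue), with the mean and SD of each line in black; the vertical axis differs between panels. DAW1 spans several log2 units, and the other panels span about 1 unit or less.

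DAW1 encodes a WD-repeat protein that loads outer-arm dynein onto IFT trains, a role worked out with its counterpart in the alga Chlamydomonas. Its single probe set read 6.31, 6.32 and 6.88 in the S116D arrays, against 11.48, 10.67 and 11.46 in the S116A arrays. All S116D arrays were low and all S116A arrays high, with a gap of 3.80 between the nearest arrays of the lines. The difference was -4.70 ± 0.23 (SE), or 26.0-fold, and 1 of all probe sets fell further. The S116D mean stood at the 22.7th percentile of all probe sets and the S116A mean at the 91.0th. The table has no calls of presence or absence, so whether any DAW1 transcript was left in S116D was not measured, and the fold is not exact at its dim end. In such bulk RNA, fewer expressing cells and less transcript per cell cannot be told apart.

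The genes beside DAW1 were read to see how far this change extended along the chromosome, a choice made after its values were seen. Of the 5 nearest measured genes on each side in RefSeq order (GRCh38.p14), 3 fell and 7 did not pass in the fit on 1 probe set per gene, in which 12.2% of all genes passed. CCL20, a chemokine gene and the next measured gene on one side, averaged 6.89 ± 0.09 in S116D and 7.48 ± 0.14 in S116A (SD, n = 3 each), a difference of -0.59. SPHKAP, the next on the other side, averaged 8.52 ± 0.09 and 8.54 ± 0.01, a difference of -0.02. AGFG1 (-0.45) and DNER (-0.30) were the other falls. The difference of DAW1 was more than 4 log2 units below that of each neighbour.

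**Figure D2:**
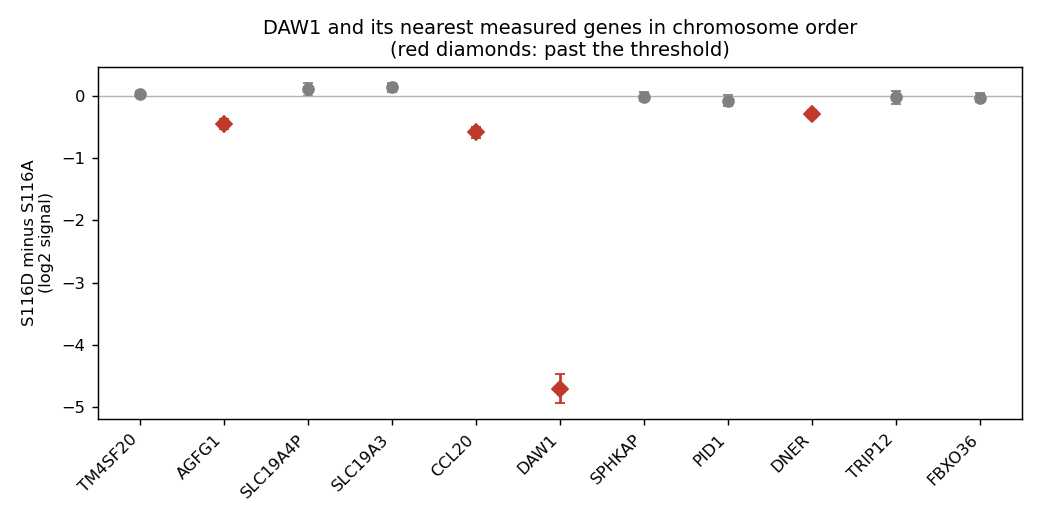
Difference S116D minus S116A (log2 signal, with limma's SE) for DAW1 and the 5 nearest measured genes on each side, in chromosome order and not to scale; red diamonds passed the threshold. DAW1 lies at -4.70, and its neighbours lie between -0.59 and 0.13.

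The other assembly factors, which fold and stack dynein arms in the cytoplasm, gave no call on all arrays. None of the 14 further probe sets of this role passed, and their differences ran from -0.417 to 0.203. DNAAF5, chosen after its values were seen, was the lowest on both of its probe sets (-0.42 ± 0.18 and -0.38 ± 0.16, SE). Its brighter probe set read 11.94, 11.38 and 11.30 in S116D, against 12.12, 12.08 and 11.67 in S116A, and the lines overlapped. This probe set passed in 4 of the 13 alternative fits (-0.619 to -0.246), with the replicate block, with array weights, with the array sets of the second principal component as a block and without S116D 1. The dimmer one passed without S116A 3 (-0.566). DNAAF3 passed with the second-component block alone (0.317).

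Heavy chains, the motor subunits, showed little difference between the lines. Of 11 outer-arm probe sets 1 fell and 10 did not pass, and of 40 probe sets for the other heavy chains none passed. The fall was that of DNAH5, an outer-arm heavy chain often mutated in primary ciliary dyskinesia. That probe set read 5.52, 5.37 and 5.65 in S116D, against 6.26, 6.02 and 6.07 in S116A, a difference of -0.60 ± 0.09 (SE). All 3 S116D arrays were lower, but the signal lay at the 12.6th percentile of all probe sets, and the identifier marks probes that other transcripts can share. The second DNAH5 probe set, brighter at 7.37 ± 0.12 in S116D and 7.28 ± 0.08 in S116A (SD, n = 3 each), differed by 0.08 in the other direction. Of the other heavy chains, the brightest probe set was 1 of DNAH3, an inner-arm chain. It read 8.90, 9.12 and 8.97 in S116D, against 9.21, 9.02 and 9.11 in S116A, and the lines overlapped. A DNAH2 probe set passed in 1 alternative fit, with the second-component block (0.246). Few heavy-chain probe sets exceeded the median signal of all probe sets, 2 of 11 and 9 of 40, against 21 of 32 for the IFT-B complex.

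Intermediate and light chains anchor the motors to the axoneme. DNAI4, an intermediate chain, rose on 1 of its 5 probe sets, which read 7.34, 7.35 and 7.31 in S116D, against 6.89, 6.46 and 6.94 in S116A. The difference was 0.57 ± 0.12 (SE), with all S116D arrays above all S116A arrays. The other 4 differed by 0.12 to 0.21 in the same direction and did not pass. Without S116D 2 or without S116D 3 the DNAI4 call was lost, at differences of 0.56 and 0.58. The remaining probe sets of this role did not pass and lay between -0.15 and 0.19.

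Radial spoke genes gave no call on all arrays. None of 10 probe sets passed, and the differences lay between -0.27 and 0.10 around a median of -0.05. The brightest, for the spoke protein RSPH3, read 11.79, 11.88 and 11.83 in S116D, against 11.76, 11.94 and 11.81 in S116A, which differ by -0.004 (95% interval -0.179 to 0.172). The other 3 RSPH3 probe sets differed by -0.27 to -0.18, and 1 of them passed without S116A 3 (-0.444).

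**Figure D3:**
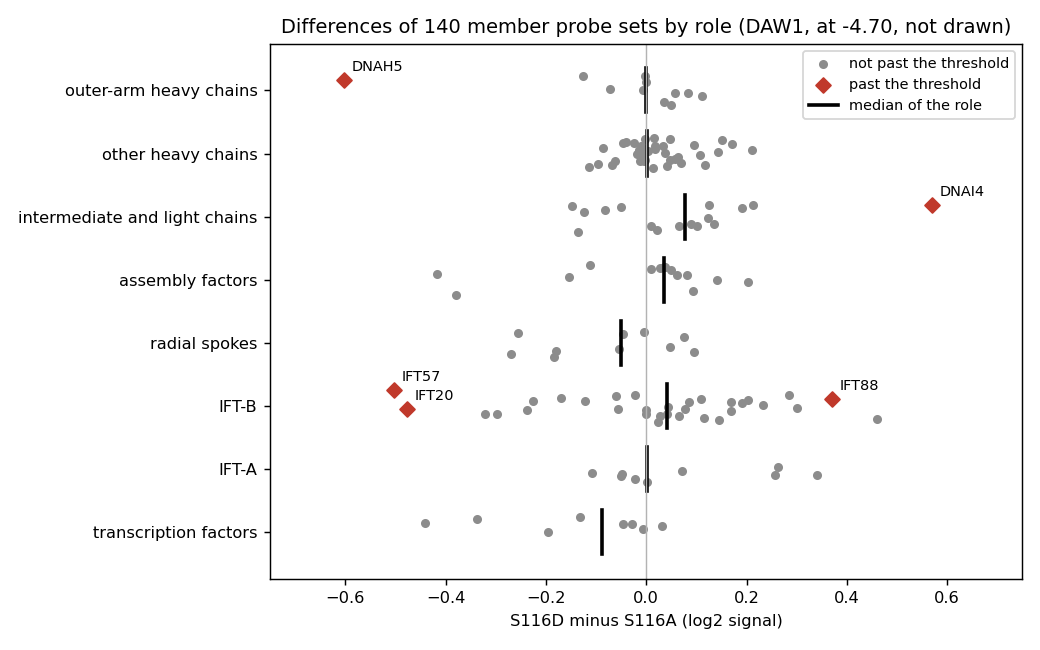
Difference S116D minus S116A (log2 signal) of 140 member probe sets by role, each point 1 probe set; red diamonds passed the threshold, black bars are medians over all probe sets of the role, and DAW1 at -4.70 is not drawn. Medians of the roles lie between -0.089 and 0.078, and the points of the IFT-B complex spread to both sides.

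Intraflagellar transport genes of the IFT-B complex, which carries cargo outward to the ciliary tip, passed about as often as probe sets at large. Of 32 probe sets 1 rose, 2 fell and 29 did not pass, a share of 9.38% where 8.55% of all probe sets passed. The lines did not overlap for 14 of them (43.8%), 7 higher and 7 lower in S116D, where 24% of all probe sets did not overlap. However, 65.6% of the IFT-B probe sets lay above the median signal. Probe sets above it passed more often, 16.2% in the fit on those alone, and their share without overlap was not computed.

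IFT57, a peripheral IFT-B subunit, fell on its brightest probe set, with 10.81, 10.93 and 10.97 in S116D, against 11.42, 11.35 and 11.45 in S116A. Its difference was -0.50 ± 0.08 (SE). Both other IFT57 probe sets were also lower in every S116D array (-0.30 and -0.32) and did not pass on all arrays. Of these, 1 passed in 6 of the 13 alternative fits and the other in 2. IFT20, the subunit that also sits at the Golgi and helps send membrane cargo to the cilium, read 10.27, 10.46 and 10.46 in S116D, against 10.83, 10.87 and 10.92 in S116A. It fell by 0.48 on the log2 scale, with no overlap, on its single probe set. Probe sets of the type found for IFT57 and IFT20 can read several transcripts. IFT88, a core subunit needed for cilium formation in mice, read 10.40, 10.44 and 10.44 in S116D, against 10.04, 10.15 and 9.98 in S116A. Its difference was 0.37 ± 0.08 (SE), with all S116D arrays higher. The IFT88 call was lost without S116A 1, S116A 3, S116D 2 or S116D 3, at differences from 0.33 to 0.37.

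The promoters of these 3 genes are shown to set the opposite shifts beside the sequence at each gene start. They run from 250 bases before to 50 after the start annotated by RefSeq (GRCh38.p14), on the gene's strand. Capitals mark the half-site of the RFX factors, GTTGCC or its complement GGCAAC, and a forkhead motif, GTAAACA or TGTTTAC, of the kind FOXJ1 binds. IFT57 lies at chr3:108222375-108222674 (minus strand), IFT20 at chr17:28335423-28335722 (minus strand) and IFT88 at chr13:20566907-20567206 (plus strand).
IFT57: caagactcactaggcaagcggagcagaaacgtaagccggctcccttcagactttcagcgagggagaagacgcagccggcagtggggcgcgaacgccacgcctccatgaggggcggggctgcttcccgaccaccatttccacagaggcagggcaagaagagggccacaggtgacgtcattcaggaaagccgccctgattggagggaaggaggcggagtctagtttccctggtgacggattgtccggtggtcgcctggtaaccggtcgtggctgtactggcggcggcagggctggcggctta
IFT20: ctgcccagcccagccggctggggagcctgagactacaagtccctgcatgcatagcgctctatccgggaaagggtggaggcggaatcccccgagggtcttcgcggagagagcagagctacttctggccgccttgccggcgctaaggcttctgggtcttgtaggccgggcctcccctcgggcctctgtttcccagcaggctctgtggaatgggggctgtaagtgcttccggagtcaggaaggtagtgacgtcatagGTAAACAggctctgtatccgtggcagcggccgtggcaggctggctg
IFT88: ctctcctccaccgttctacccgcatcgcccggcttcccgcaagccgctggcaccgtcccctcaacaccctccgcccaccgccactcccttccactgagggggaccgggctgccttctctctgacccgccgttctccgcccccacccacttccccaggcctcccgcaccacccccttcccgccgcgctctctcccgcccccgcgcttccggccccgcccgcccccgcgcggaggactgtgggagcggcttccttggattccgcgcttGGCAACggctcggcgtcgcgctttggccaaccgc
The IFT88 window holds 1 half-site, the IFT20 window 1 forkhead match, and the IFT57 window neither set of letters. The promoter of DNAH5, which also passed and is not shown, holds neither as well.

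IFT-B consists of a core, IFT-B1, and a peripheral part, IFT-B2, and most core probe sets were higher and most peripheral ones lower in S116D. This grouping was chosen after the values were seen and was not tested. Of 23 core probe sets (11 genes) 17 were higher and 6 lower in S116D, with a median of 0.11. Among 8 whose lines did not overlap 7 were higher. Of 9 peripheral probe sets (4 genes) 3 were higher and 6 lower, with a median of -0.24. All 6 whose lines did not overlap were lower, 3 of IFT57, 2 of IFT80 and 1 of IFT20. Over all probe sets, 24% did not overlap. Among probe sets above the median signal, 13 of 15 were higher for the core and 5 of 6 lower for the periphery. Most of these values did not pass, and probe sets of 1 gene read the same transcript.

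Named examples, also chosen afterwards, show the size of these shifts. IFT52, a core subunit, read 11.54, 11.46 and 11.49 in S116D, against 11.26, 11.11 and 11.27 in S116A, a difference of 0.28 ± 0.08 (SE). IFT46, the core subunit that binds the DAW1 counterpart in Chlamydomonas, read 9.95, 10.32 and 10.18 in S116D, against 9.82, 9.83 and 9.90 in S116A. Both were higher in every S116D array and did not pass on all arrays. IFT52 passed in 6 of the 13 alternative fits (0.282 to 0.319), quantile normalization and the replicate block among them, and IFT46 in 2, with array weights and without S116D 1 (0.361 to 0.401). A probe set of the core subunit IFT25 passed with the replicate block alone (0.461). IFT80, a peripheral subunit, was lower on its 2 bright probe sets (-0.24 and -0.23) and differed by 0.08 and 0.04 on its 2 dim ones. IFT172, the largest peripheral subunit, differed by 0.07, with overlap. CLUAP1 and TRAF3IP1, the peripheral subunits also called IFT38 and IFT54 that the symbol rule leaves out, were lower on 4 of 5 probe sets (-0.30 to -0.09), and none passed.

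**Figure D4:**
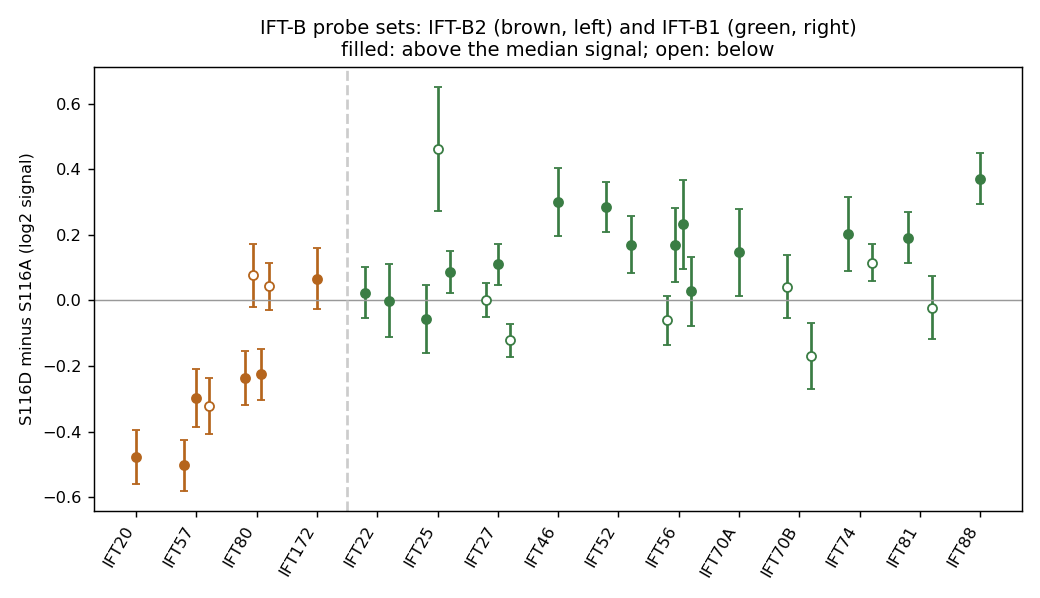
Difference S116D minus S116A (log2 signal, with limma's SE) of each IFT-B probe set by gene, with the peripheral IFT-B2 genes in brown on the left and the core IFT-B1 genes in green on the right; filled points lie above the median signal and open points below it. Filled peripheral points other than IFT172 lie below 0, and filled core points run from -0.056 to 0.371.

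The IFT-A complex, which serves return transport and the entry of membrane receptors, had 9 probe sets, and none passed on all arrays. Its brightest, for IFT122, read 10.27, 9.89 and 10.00 in S116D, against 10.29, 10.23 and 9.96 in S116A, with overlap. IFT43, chosen after its values were seen, was higher on all 3 of its probe sets, by 0.26, 0.26 and 0.34. The last of these passed with the replicate block and with array weights (0.341 and 0.434).

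The transcription factors gave no call on all arrays. Of 8 probe sets for FOXJ1, RFX2 and RFX3, 7 were lower in S116D, with a median of -0.09, and none passed. The lines did not overlap for 3 (37.5%), 1 of FOXJ1 and 2 of RFX3, all lower in S116D. Of all probe sets, 24% did not overlap. The brightest, for RFX2, read 8.75, 8.65 and 8.76 in S116D, against 8.81, 8.74 and 8.75 in S116A, a difference of -0.05 with overlap. Another RFX2 probe set differed by -0.44 ± 0.15 (SE), with overlap. It passed in 4 of the 13 alternative fits (-0.613 to -0.305), with the replicate block, array weights or the second-component block and without S116A 3. FOXJ1, the master factor of motile cilia, read 7.91, 7.88 and 7.85 in S116D, against 7.93, 7.94 and 8.16 in S116A, close to the median signal of 7.89. RFX3 differed by -0.34 on the lowest of its 4 probe sets, which passed with the replicate block and with array weights.

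Probe sets of 1 gene often disagreed in sign at these small sizes. Of 38 genes with over 1 probe set, 16 had all differences on one side (10 higher and 6 lower in S116D) and 22 were mixed. Another 20 genes, DAW1, IFT20 and IFT88 among them, had a single probe set, so their changes could not be checked on a second one. On all arrays no gene passed on more than 1 probe set, whereas IFT57 passed on 2 or 3 in 6 of the 13 alternative fits.

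Promoter sequence, which the symbol rule did not use, was searched for motifs of the ciliary transcription factors. RefSeq promoters were matched for 45 of the 58 genes. The 13 genes without one, DAW1 and DNAI4 among them, were not searched. The RFX half-site GTTGCC (or GGCAAC, both strands) stood in 22 of these 45 (48.9%), where 12.2% of 27305 promoters of the same length held it, and 23 lacked it. The forkhead motif GTAAACA (or TGTTTAC) stood in 1 of 45 (2.22%), where 3.41% of all promoters held it. Facing half-sites spaced as in the X-box that RFX dimers bind, GTTGCCNNGGCAAC, stood in 1 member promoter, that of DNAH1, and in 0.0769% of all promoters. With the fourth letter of each half-site left free, GTTNCCNNGGNAAC, which includes the stricter form, IFT70A joined it (4.44% of members, 0.458% of all). Such matches are descriptions of these windows only.

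Stretches of 50 bases from the 4 promoters whose half-sites start at most 20 bases apart show how the sites are arranged, with half-sites in capitals. They lie in DNAH1 at chr3:52316196-52316245 (plus strand), DNAH12 at chr3:57544405-57544454 (minus), IFT70A at chr2:177618721-177618770 (minus) and RSPH14 at chr22:23141991-23142040 (minus).
DNAH1: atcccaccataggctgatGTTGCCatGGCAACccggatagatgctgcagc
DNAH12: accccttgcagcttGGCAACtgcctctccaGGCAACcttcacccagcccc
IFT70A: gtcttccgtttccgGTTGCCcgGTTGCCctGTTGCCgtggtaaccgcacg
RSPH14: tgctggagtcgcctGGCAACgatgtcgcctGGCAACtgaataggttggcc
DNAH1 has 2 bases between facing sites, IFT70A has 3 sites of one orientation with 2 bases between neighbours, and DNAH12 and RSPH14 each have 10 bases between sites of one orientation. None of these 4 genes had a probe set that passed between the lines.

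**Figure D5:**
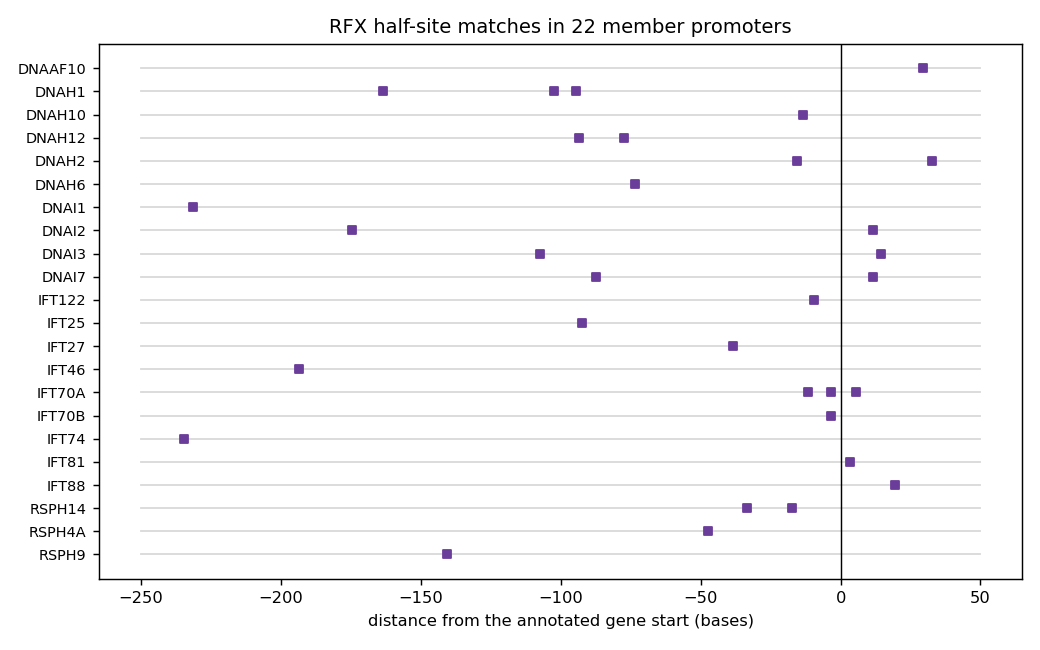
Position of each RFX half-site match, in bases from the annotated gene start (vertical line), in the 22 member promoters that hold one; each square is 1 match on either strand. In 8 promoters there is more than 1 match, and matches occur from -237 to 30.

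Other ciliary genes, on 1 probe set per gene, moved in both directions as well, in a fit in which 12.2% of all genes passed. Of 10 genes for IFT motors, the kinesin-2 and dynein-2 subunits, KIFAP3 rose (0.34) and KIF3C fell (-0.57). DYNLT2B (-0.19) and DYNC2I2 (0.11), the brightest others, did not pass. Of 13 genes of the BBSome and its partners, an adaptor for membrane cargo on IFT trains, BBS5 (0.54), BBS9 (0.37) and TTC8 (0.34) rose, ARL6 fell (-0.41) and 9 did not pass, with a median of 0.13 where the median of all genes was 0.006. Of 29 transition-zone and primary-cilium genes, B9D1 (0.31) and TMEM216 (0.37) rose, CEP89 (-0.39) and GPR161, a receptor that damps Hedgehog signalling (-0.70), fell, and 25 did not pass.

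Of 47 further axonemal genes 3 rose, 1 fell and 43 did not pass. CFAP300, a protein of dynein arm assembly, averaged 9.29 ± 0.16 in S116D and 8.32 ± 0.11 in S116A (SD, n = 3 each), a difference of 0.97. MNS1 (0.45) and CFAP221 (0.33) also rose, and SPAG16, a central-pair protein, fell (-0.57). Of 13 multiciliogenesis genes E2F5 rose (0.56), CCP110, which caps the mother centriole, fell (-0.31) and 11 did not pass. The share of all genes that passed was 12.2%.

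None of 11 measured markers of multiciliated cells passed. Of these, 8 (TP73 and DEUP1 included) lay below the median signal, and FOXJ1, GMNC and CCNO lay above it. The mean level of the 11 markers was 7.37 to 7.45 in the S116D arrays and 7.31 to 7.42 in the S116A arrays. None of 6 leukocyte and 7 fibroblast markers passed, and of 5 endothelial markers KDR alone fell (-0.43, from a dim signal). The median is no mark of presence or absence: the leukocyte markers CD3E, CD8A and MS4A1 also lay above it, and 3 leukocyte markers lay below. Ovarian carcinoma markers were above the median signal for 7 of 8 genes, PAX8 among them, and MUC16 was below it. KRT7, KRT18, KRT8 and EPCAM fell (-1.56 to -0.39), where 12.2% of all genes passed, and their part in the ciliary differences was not tested.

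Over the whole table the correlation r was 0.9951 to 0.9979 within a line and 0.9866 to 0.9902 between lines. Array medians lay between 7.862 and 7.893. The 3′ minus 5′ control signal of GAPDH, a log2 difference, was 0.70 to 0.79 in S116D and 0.65 to 0.78 in S116A. That of ACTB was larger, at 2.27 to 2.47 in S116D and 2.33 to 2.43 in S116A. The second principal component set S116A 3, S116D 2 and S116D 3 apart from the rest.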

How the data were processed

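Total RNA of 6 samples, 3 per line, was hybridised to Affymetrix arrays. The file the authors deposited holds 1 value per probe set and array, taken as log2 signal because all values lie between 4.336 and 15.33 with nearly equal quartiles. MAS5 and RMA are named, without a role, per the submitters' processing notes. Their versions and any background step or filter are not known here. The number of arrays limits the precision.

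After 62 control probe sets were left out, limma 3.58.1 in R 4.3.3 (lmFit, eBayes with intensity trend, Benjamini-Hochberg adjustment) was fitted on all 54613 probe sets. Gene lists used 1 probe set per gene, that with the highest mean. Gene names came from GEO's platform annotation, updated through RefSeq (GRCh38.p14), which changed 0 member symbols. An exact permutation test of 3 against 3 cannot give a p below 0.1, and none is reported. On simulated data with 200 changed of 54613 probe sets, the fit recovered 42.0% of changes of 0.5 and 92.0% of changes of 1 (log2), and 4.76% of calls were false.

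The members and lists were chosen with earlier results of these data known. Values in every array are given for members that passed, and for the brightest member of each role where none passed. Of each list, up to 3 genes that passed are named, and of some lists also the 2 brightest that did not. Further genes were chosen after their values were seen. Same-numbered arrays deviated from their line means with correlations of 0.45, -0.04 and 0.44. These values do not settle whether the numbers pair the arrays, and the main fit did not take them as pairs. As alternatives the fit was repeated without each array, without the trend, with array weights, with replicate number as a block, without dim probe sets, after median centring or quantile normalization, and under other probe-set rules. The planned pseudocounts were not needed for log2 values.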

Additional observations from a re-analysis of the deposited data

How the results depend on the processing

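DAW1, DNAH5, IFT20 and IFT57 kept their direction and call on the same probe sets in each probe-set fit that tested those, at -4.97 to -4.56 for DAW1. The fit on 1 probe set per gene read DNAH5 from its other probe set, which differed by 0.08 and did not pass. The filter on dim probe sets removed DNAH5 and DNAI4. With the replicate number as a block, 5 members rose and 9 fell of 7340 probe sets passing (9.93% of members, 13.4% of all). Whether the numbers pair the arrays is not known. With array weights 5 rose and 8 fell (9.22% of members), where 11.7% of all probe sets passed. With the array sets of the second component as a block, an alternative chosen after seeing the data, 5 rose and 8 fell of 8099 passing. These were 9.22% of members, where 14.8% of all probe sets passed. On 1 probe set per gene, 1 rose and 3 fell of 58 genes (6.9%), where 12.2% of all genes passed. With shared probe-set types left out, 2 rose (DNAI4 and IFT88) and 1 fell (DAW1) of 100 member probe sets (3%). Of all probe sets, shared types included, 8.55% passed. Leaving out each array in turn, 0 to 3 members rose and 4 to 7 fell, so that 2.84% to 5.67% of members passed. Over all probe sets 2608 to 4674 passed (4.78% to 8.56%). Of the other cilium and dynein lists 10 to 19 genes passed, against 24 on all arrays. The causes of these changes were not tested. Changes of 0.3 were recovered in 6.0% of simulated probe sets. The simulation changed 200 probe sets, whereas 4672 passed in these data, so its recovery need not carry over to them. Shifts of that size can be missed with 3 arrays a line, although some genes with differences near 0.3 passed on 1 probe set per gene.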

Other observations

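The cytoplasmic motor that shares light chains with axonemal dynein also changed in both directions, on 1 probe set per gene. Of 23 genes of dynein-1, dynactin and their regulators, 3 rose, 3 fell and 17 did not pass, where 12.2% of all genes passed. The light intermediate chain gene DYNC1LI1 averaged 11.03 ± 0.13 in S116D and 10.48 ± 0.09 in S116A (SD, n = 3 each), and DYNLRB1 (0.27) and DCTN4 (0.36) rose as well. PAFAH1B1, the LIS1 regulator of dynein, averaged 11.52 ± 0.12 in S116D and 12.01 ± 0.08 in S116A, and DYNLL2 (-0.40) and NDE1 (-0.31) fell with it. DYNLT1 (-0.20) and CAPZA1 (-0.09), the brightest of the rest, did not pass.

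Among 7 other genes of the RFX family and its partners, RFX5 rose (0.53 ± 0.14, SE) and RFXAP fell (-0.55 ± 0.10, SE), both subunits of the complex that activates class II antigen presentation genes. RFX7 (0.06) and RFXANK, the remaining subunit of that complex (0.16), did not pass. Over the 7 cilium, dynein and RFX lists together, 14 of 142 genes rose and 10 fell (16.9%), against the same 12.2%.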
